A study of Mus musculus with 15 samples.

Results

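Rab GTPases are the largest branch of the Ras superfamily of small G proteins. The genes described here are the protein-coding genes whose symbol is Rab followed by a number and at most 2 further letters or digits, 59 genes, of which 58 are among the 28785 gene IDs counted in mouse oocytes and 1 (Rab20) had no count. The pattern also took in Rab3ip and Rab5if, which encode Rab-interacting proteins and were left out. Of the 59 genes 34 were measured, which means at least 5 CPM in the higher of the 2 stages. CPM are counts per 1000000 counts, leaving out 1 unnamed feature that is described below.

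Single oocytes were sequenced with MATQ-seq, a method that amplifies the total RNA of 1 cell. The MII group held 6 oocytes arrested in the second meiotic metaphase, from mice injected with 7 IU of PMSG and then, after a 48 h interval, with 7 IU of hCG. They came from the oviducts 20 h after the hCG, with the cumulus digested away by hyaluronidase at 300 IU/mL. The GV group held 9 fully grown germinal vesicle oocytes, taken 44 h after 7 IU of PMSG from mice of about 6 to 8 weeks. No strain, genotype or individual mouse is named in the labels, so each stage counts as 1 sample made of several cells and no test was made. Differences are given by their size, with the oocyte-to-oocyte spread next to them.

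A Rab protein switches between a GTP-bound form on a membrane, where it recruits motors, tethers and other effectors, and a GDP-bound form that a GDI protein holds in the cytosol. Each member marks its own set of compartments, and lipid groups on cysteines at the end of the protein anchor it there. In mouse oocytes, Rab11a and Rab27a have been placed on vesicles and cortical granules that move to the cortex, and Rab3a has been tied to the exocytosis of cortical granules, whose contents modify the egg coat after fertilisation.

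The shared end of the coding sequence is shown first, because it is the part of these mRNAs that encodes the membrane anchor. The last 30 bases of the coding sequence are given 5′ to 3′ on the mRNA strand with the cysteine codons (TGC or TGT) among the last 4 coding codons in capitals. They were read from GENCODE M21 transcripts (build GRCm38) paired with a RefSeq accession. The first 4 lines are the Rab3 paralogs, of which Rab3b and Rab3d carry the results below (mouse chromosomes 4 and 9). The others are the 2 remaining cortical granule Rabs (Rab27a and Rab11a, both on chromosome 9), the most abundant member per length (Rab7, chromosome 6) and Rab8a (chromosome 8).
Rab3b: cctctgctgcagcagaacTGCtctTGTtag
Rab3d: cccccacagccgagcagcTGCagcTGTtag
Rab3a: gcgccacctcatcaggatTGTgccTGCtga
Rab3c: cctccaccacagcccaacTGTggcTGCtaa
Rab27a: gagaaggagaaggggttgTGTggcTGTtga
Rab11a: ccaaaggtgcagtgcTGTcagaacatctaa
Rab7: aaggcctccgcagaaagcTGCagtTGTtga
Rab8a: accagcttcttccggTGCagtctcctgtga
All 59 members had at least 1 cysteine codon among the last 4, 44 with 2 and 15 with 1. Of 20459 protein-coding genes with such a transcript, 1.31% had 2 or more and 8.95% had 1. The 4 Rab3 paralogs, Rab27a and Rab7 share the spacing of 2 cysteine codons with 1 codon between them, which 20 members had. Among its last 4 codons Rab8a has 1 cysteine codon followed by 3 others, as 15 members did. Rab11a is 1 of these 15, but the codon just before its last 4, left in lower case above, is a cysteine codon too.

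Counts outside 1 unnamed feature (ENSMUSG00000119584) summed to 5938551 over the MII oocytes and 43039467 over the GV oocytes, with 536101 to 1277878 per MII oocyte and 3275485 to 7103063 per GV oocyte. The feature took 15.7% to 61.2% of the counts of an MII oocyte, with the highest shares in MII5 (52.6%) and MII6 (61.2%), 3.43% to 11.2% in GV7 to GV9 and none in GV1 to GV6. The column headers also set these GV oocytes apart (E for GV7 to GV9, Y for GV1 to GV6) and differ again for the MII files, so the stage of an oocyte and the set of files it belongs to cannot be told apart. All 10 oocyte markers were measured (Zp3 at 3265 CPM in MII and 7722 CPM in GV). They summed to 7390 to 15461 CPM per MII oocyte and 7146 to 28365 CPM per GV oocyte. The lowest sum was in GV2, and the next GV oocyte was GV7 (14934 CPM). Relative to the median measured gene 9 of the 10 were lower in MII. At least 2-fold lower were 3 of them, against 15.8% of all measured genes, and none was 2-fold higher. The 14 cumulus and granulosa markers summed to 29.5 to 128 CPM per MII oocyte and 101 to 354 CPM per GV oocyte, highest in GV1, with 5 markers (Inha, Inhba, Amh, Foxl2 and Ptx3) at 0 in MII and 1 (Tnfaip6) at 0 in GV. The summed markers of blood and immune cells were 0 to 0.864 CPM per MII oocyte and 0 to 5.19 CPM per GV oocyte, with 11 of 12 at 0 in MII and 8 of 12 in GV. Those of theca and stroma were 0 to 51.2 CPM per MII oocyte and 0 to 27.2 CPM per GV oocyte (mostly Col1a1), with 7 of 9 at 0 in MII and 1 in GV. The highest were MII5 (51.2 CPM), GV2 (27.2 CPM) and GV1 (18.5 CPM), and GV8 (4.95 CPM) came next. The oviduct list summed to 616 to 1492 CPM per MII oocyte and 541 to 1325 CPM per GV oocyte, nearly all of it Cdh1, which oocytes also express, with 5 of 7 at 0 in MII and 0 of 7 in GV. The part of these markers in the results below was not tested.

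The summed level of the family depended on what was counted, and on Rab3b. Per counts outside the feature it was 4251 ± 1716 CPM in MII oocytes and 2927 ± 676 CPM in GV oocytes (SD, n = 6 and 9). The lowest, median and highest oocyte were at 2790, 3513 and 7100 CPM in MII and at 2055, 2887 and 3857 CPM in GV. Without Rab3b the means were 3059 ± 647 CPM in MII oocytes and 2725 ± 622 CPM in GV oocytes, so most of the difference was in that gene. Per all counts, feature included, the direction turned, with 2515 ± 477 per 1000000 in MII oocytes and 2841 ± 598 in GV oocytes. Both of these values were added after the data were seen. A stage ratio below is the log2 ratio MII/GV of summed counts relative to that of the median measured gene, which stood at −0.29. The number after ± combines the SDs over oocytes of both stages. Of the 34 measured members, 24 had a positive and 10 a negative ratio, with a median of 0.50, against 0 over all 10410 measured genes by construction. The median turned to −0.51 with the unnamed feature counted and no median gene used, a scaling that shifts every ratio by −0.95. On that scaling the median measured gene itself stood at −0.98, below the Rab median. Against GV7 to GV9 alone the Rab median was 0.030. At least 2-fold lower in MII were 2 members (5.88% of those measured, against 15.8% of all measured genes) and at least 2-fold higher were 5 (14.7%, against 12.9%), so the share on the higher side is near the background. The other 27 lay within 2-fold. With the feature counted, 9 members were lower and 2 higher, on the scaling that put the median measured gene itself at −0.98. The share of all measured genes past 2-fold on that scaling was not computed. In 5 members the ratio was larger than the spread between oocytes, with Rab3b, Rab14 and Rab27a on the higher side and Rab13 and Rab40c on the lower side. The share of all measured genes with a ratio larger than their spread was not computed. The ratio is of summed counts, while the spread is of levels per oocyte. With the mean over oocytes in place of the sum, 4 members exceeded it (Rab3b at 2.73, Rab27a at 1.20, Rab13 at −1.91 and, barely, Rab3d at 0.79), and Rab14 (1.08) and Rab40c (−1.73) did not.

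**Figure D1:**
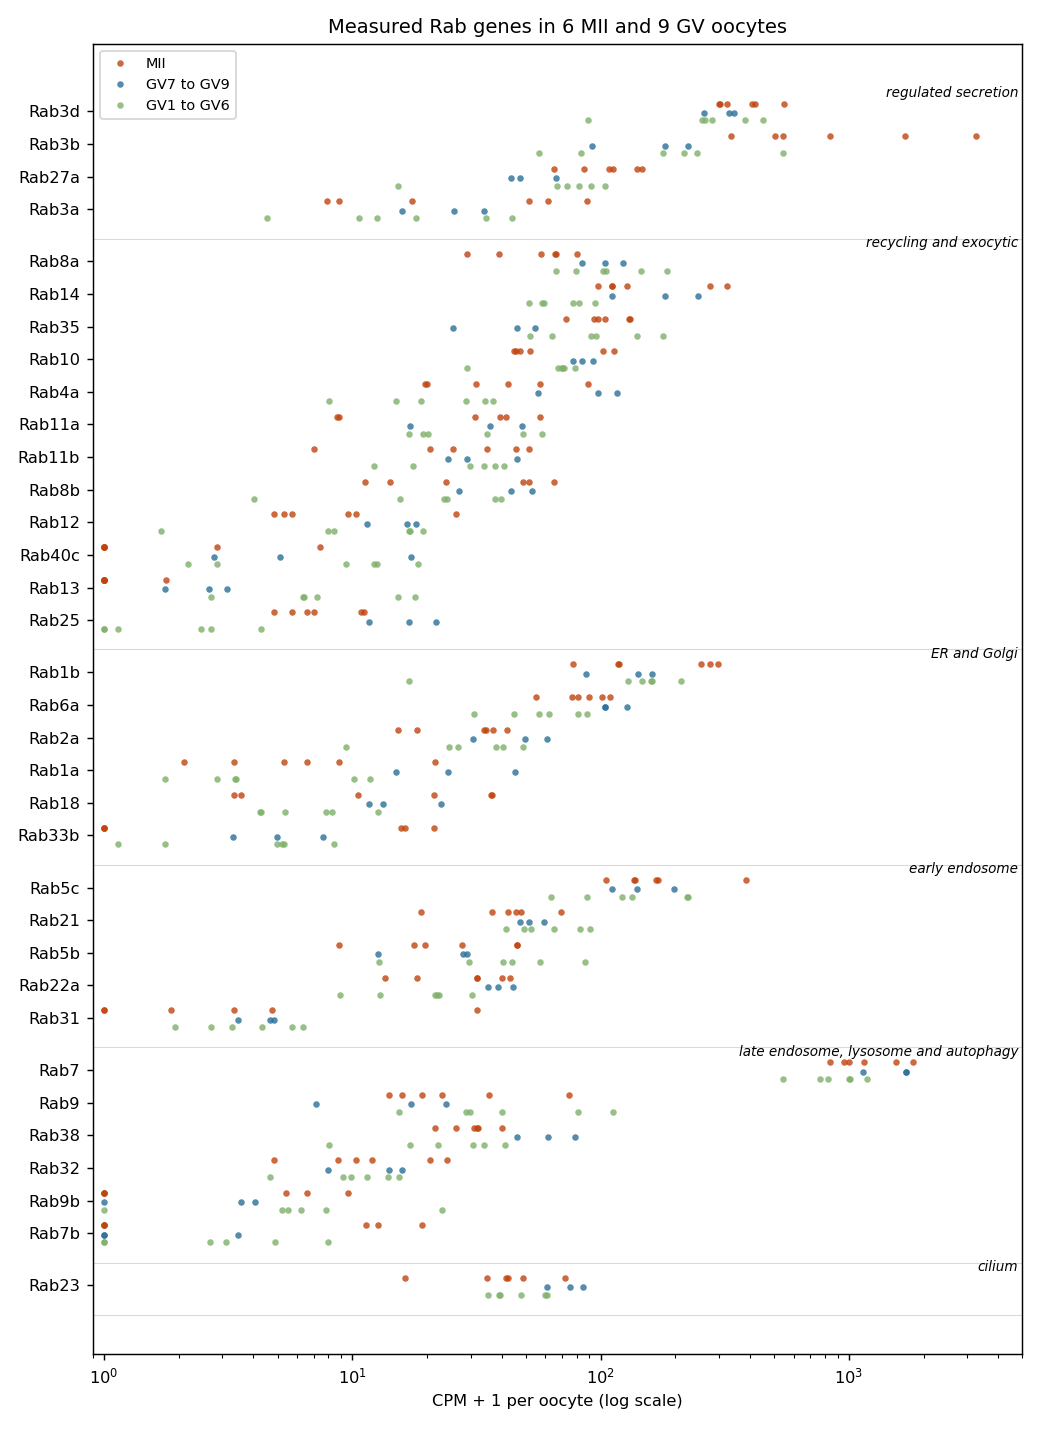
Level of the 34 measured Rab genes in every oocyte, as CPM + 1 on a log axis, grouped by role. Each point is 1 oocyte, with MII points above the points of GV7 to GV9 and of GV1 to GV6; Rab3b reaches 3258 CPM in MII5, and Rab25 spans 10.7 to 20.6 CPM over GV7 to GV9 and 0 to 3.30 CPM over GV1 to GV6.

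**Figure D2:**
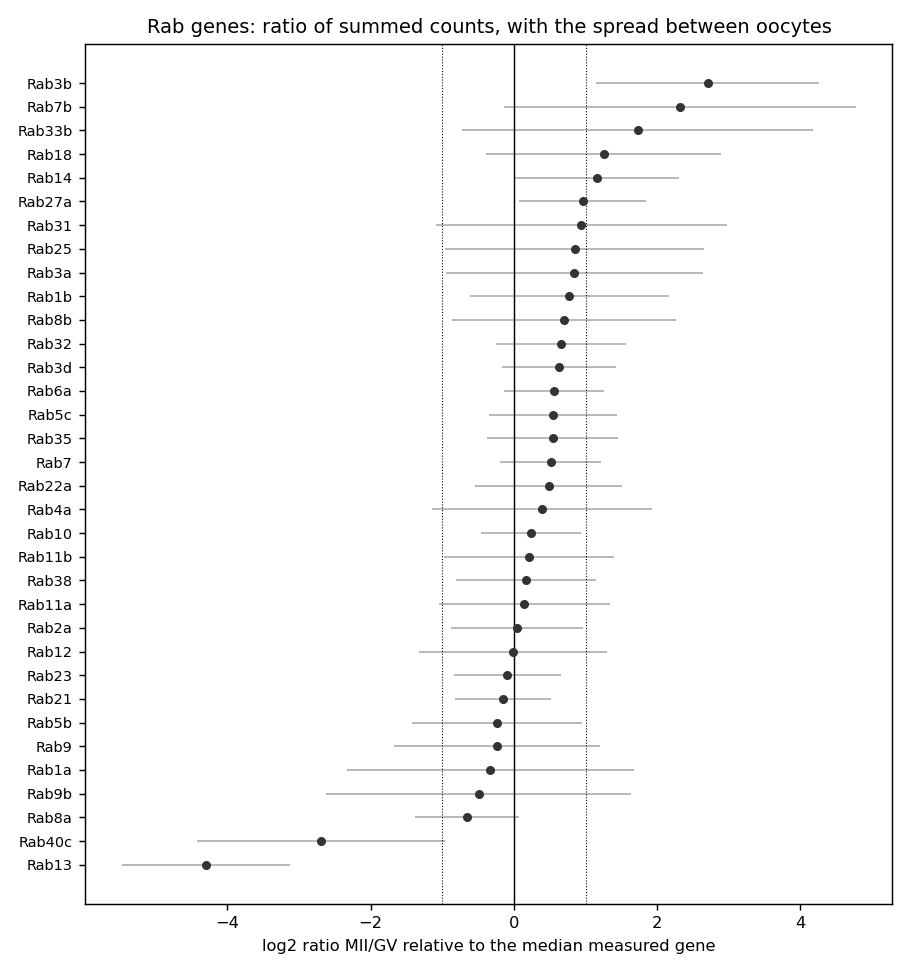
Log2 ratio MII/GV of each measured Rab gene relative to the median measured gene (points), with the spread between oocytes to either side (bars) and dotted lines at 2-fold. Rab3b lies highest at 2.703 and Rab13 lowest at −4.30, and most bars cross 0.

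Per kb of exon, the scale on which levels of different Rab genes are ranked here, 1 late endosomal Rab led the family. Rab7, which directs late endosomes to lysosomes, was at 462 CPM per kb in MII and 395 CPM per kb in GV, rank 63 in MII and rank 62 in GV of 10382 measured genes with a length. In MII it was followed by Rab3b (310), Rab3d (89.7), Rab1b (84.8), Rab5c (78.1) and Rab35 (37.5 CPM per kb). In GV the order was Rab3d (70.9), Rab5c (65.4), Rab1b (60.5), Rab3b (58.0) and Rab35 (31.4 CPM per kb). On this scale the same 6 genes therefore led in both stages, with Rab3b at rank 2 of the family in MII and at rank 5 in GV. The set depends on the length used. For Rab14 the exons sum to 13589 bases and the RefSeq transcript to 3081. With the RefSeq length Rab14 would lie above Rab35 in MII. The 4 genes from the second to the fifth place in GV lie closer together than the SDs of their levels over GV oocytes, which were 24.1 CPM per kb for Rab3d, 26.4 for Rab5c, 24.2 for Rab1b and 41.2 for Rab3b.

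Rabs of regulated secretion made up a larger share of the family in MII, most of it through Rab3b. The Rab3 and Rab27 proteins, which dock secretory vesicles at the plasma membrane, are most of this group of 9. Their share of the family's counts per kb was 21.9% to 49.7% per MII oocyte (median 29.9%) and 5.62% to 25.7% per GV oocyte (median 14.0%). With Rab3b taken out of the group and of the family, the shares were 11.4% to 16.8% per MII oocyte (mean 13.5%) and 3.68% to 18.4% per GV oocyte (mean 11.1%), so the MII oocytes then lay inside the GV range. The 4 measured members (Rab3a, Rab3b, Rab3d and Rab27a) all had positive ratios, with a median of 0.90. At least 2-fold higher was 1 of them (25%, against 12.9% of all measured genes). With the feature counted, Rab3a and Rab3d turned negative (−0.11 and −0.33) and Rab27a stood at 0.01.

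Rab3b had the highest ratio of all measured members. Its lowest, median and highest values were 333, 690.0 and 3258 CPM in MII oocytes, against 55.3, 181 and 544 CPM in GV oocytes. MII5 (3258 CPM) and MII6 (1678 CPM) were the highest oocytes of all, while MII1, MII2 and MII3 (333 to 542 CPM) were below the highest GV oocyte, GV4, so the ranges overlap. Summed over a stage it was at 1093 CPM in MII (6489 counts, exact Poisson 95% interval 1066 to 1120 CPM) and at 205 CPM in GV (8804 counts, 200.3 to 209 CPM). The ratio was 2.703 ± 1.56, and 1.78 without MII5 and MII6, in which the unnamed feature was also highest. It was 2.96 against GV7 to GV9 and 2.58 against GV1 to GV6, and stayed positive, at 1.75, with the feature counted.

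Rab3d, a paralog best known from the zymogen granules of exocrine cells, was more even. It ran over 298, 365 and 546 CPM in MII oocytes and 88.2, 279 and 450 CPM in GV oocytes (lowest, median, highest), with a ratio of 0.63 ± 0.79. The GV value at the low end was GV2, and the stages overlap. Rab3d was the leading Rab3 paralog per kb in GV, 1.22-fold above Rab3b in the summed counts and highest in 8 of 9 oocytes. In MII the lead was with Rab3b, 3.46-fold above Rab3d and highest in 6 of 6 oocytes. This was the only one of 15 paralog groups in which the leading member differed between the stages, and it did so with RefSeq transcript lengths too.

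Rab3a, the family member tied to cortical granule exocytosis in mouse oocytes, was at far lower levels than Rab3b and Rab3d. Its lowest, median and highest values were 6.91, 33.4 and 87.1 CPM in MII oocytes and 3.52, 17.1 and 43.0 CPM in GV oocytes. The MII oocytes were split, with MII1, MII5 and MII6 at 50.4 to 87.1 CPM and MII2, MII3 and MII4 at 6.91 to 16.4 CPM, inside the GV range. The ratio was 0.85 ± 1.79 and turned to −0.17 without MII5 and MII6. Rab3c had 6 counts in MII and 19 in GV and was not measured.

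Rab27a, which carries and docks lysosome-related and secretory granules, was the 1 member whose stages did not overlap in level relative to the oocyte's median gene (2.94% of those measured). Among all measured genes 1.62% were apart on the higher side, 0.845% on the lower side and 2.47% on either, so the count of 1 member is near the background. Rab27a had 64.0, 109 and 145 CPM in MII oocytes and 14.3, 65.6 and 104 CPM in GV oocytes (lowest, median, highest), which overlap in CPM. On the relative log2 scale the MII oocytes lay at 1.78 to 2.77 and the GV oocytes at −0.69 to 1.76, so the gap was a narrow one. The gap closed when GV1, GV5 or GV6 was left out and when the unnamed feature was counted. Leaving out an oocyte also redefined the measured genes, and with them the median gene of each remaining oocyte. The ratio was 0.96 ± 0.89, with 1.27 against GV7 to GV9 and 0.82 against GV1 to GV6. Its paralog Rab27b had 0 counts in MII, where 3 counts would be 0.505 CPM, and 7 in GV. Rab26, Rab37 and Rab44, the other members of the group, had at most 5 counts each in MII and 87 in GV.

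Rab11a, a Rab of recycling endosomes that in mouse oocytes marks vesicles moving along actin, showed no stage difference beyond the spread. It had 7.68, 34.3 and 56.0 CPM in MII oocytes and 15.9, 34.0 and 57.1 CPM in GV oocytes (lowest, median, highest). MII4 and MII5 were the lowest of all 15 oocytes. The summed levels were 28.3 CPM in MII (168 counts) and 31.2 CPM in GV (1343 counts), with a ratio of 0.15 ± 1.20, and −0.81 with the feature counted.

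**Figure D3:**
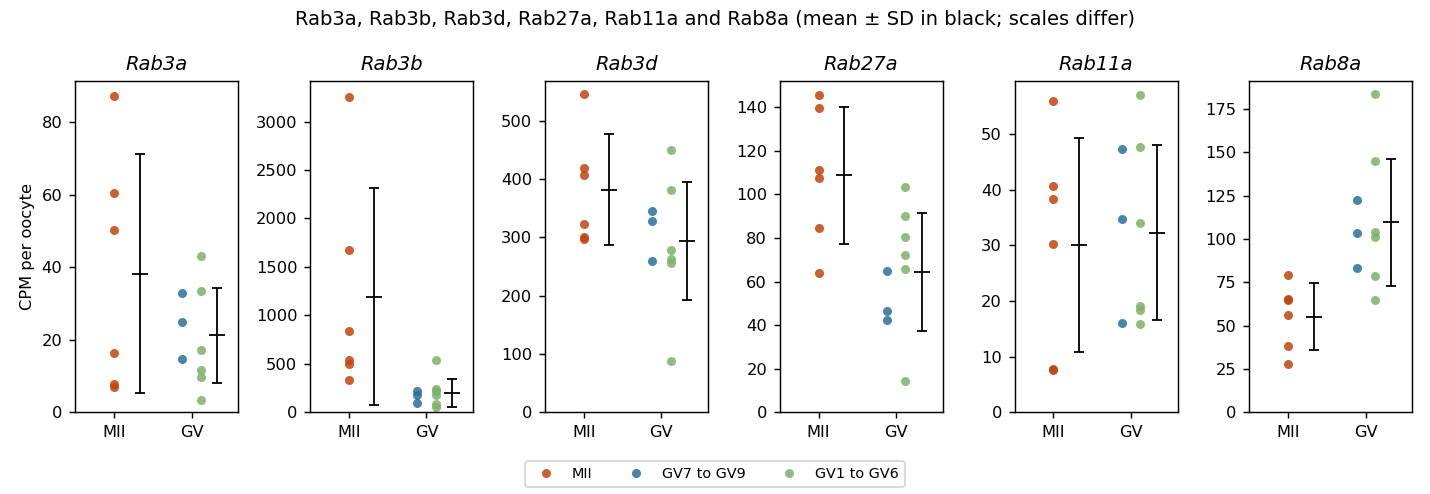
CPM per oocyte of Rab3a, Rab3b, Rab3d, Rab27a, Rab11a and Rab8a, with MII left and GV right in each panel (points are oocytes, black marks are mean ± SD, and each panel has its own axis from 0). Rab3b is at 333 to 3258 CPM in MII and 55.3 to 544 CPM in GV, while Rab8a is at 28.0 to 79.4 CPM in MII and 65.0 to 183 CPM in GV.

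Because the cytoplasmic polyadenylation element, a U-rich motif near the end of the 3′ UTR, can lengthen the poly(A) tail of an mRNA during oocyte maturation, it was looked up in these mRNAs. The last 100 bases of the 3′ UTR were searched on the mRNA strand for TTTTAT and TTTTAAT. Of 58 members with a long enough 3′ UTR, 11 held a match (19.0%), as did 5 of the 34 measured members (14.7%), against 18.2% of 17738 genes. Among the cortical granule Rabs, Rab11a alone had a match, and these letters were not in the windows of Rab3a, Rab3b, Rab3d, Rab27a or Rab7. A match in Rab11a (chromosome 9) and in 3 other measured members (Rab6a on chromosome 7, Rab8b on chromosome 9 and Rab9 on chromosome X) is shown in a 30-base window with the motif in capitals, to set the Rab11a letters beside those of Rabs outside the cortical granule group. None of these 4 matches overlapped a polyadenylation signal (AATAAA or ATTAAA).
Rab11a: ggacttttTTTTAATctattgatttggagt
Rab6a: ctcttttgTTTTATtttgacatggcatgtc
Rab8b: aaaatgaaTTTTATtccaggtgaacttttt
Rab9: gtgtatatTTTTATgtaattagcattgtat
Rab18 was the fifth measured member with a match. The stage ratios of the 5 genes were 0.15 (Rab11a), 0.56 (Rab6a), 0.70 (Rab8b), −0.24 (Rab9) and 1.25 (Rab18), each within its spread.

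The remaining recycling and exocytic Rabs held both members that were at least 2-fold lower in MII. Of 15 genes in this group 12 were measured, with a median of 0.22. At least 2-fold lower were 2 (16.7%, against 15.8% of all measured genes) and 1 was higher (8.33%, against 12.9%). Rab13, which acts in traffic to cell junctions, had 1 count in all MII oocytes together and 260 in GV, where every oocyte held it at 0.765 to 16.9 CPM. In CPM the GV level was 35.9-fold above that of MII, with a counting interval of 6.38 to 1422. The ratio of −4.30 ± 1.17 rests on low counts: it was −2.38 against GV7 to GV9, −4.66 against GV1 to GV6 and −5.56 without MII4, which held the single MII count. GV1 (16.9 CPM) and GV2 (14.3 CPM) were the highest oocytes, GV1 also being highest in cumulus and granulosa markers. GV1 and GV2 were also the highest GV oocytes in theca and stroma markers, whose part was not tested. Without GV1 and GV2 the ratio was −3.55, with Rab13 then below the filter on level. Rab40c, a Rab with a SOCS box that joins a ubiquitin ligase, had 6 MII counts, at 1.87 CPM in MII1 and 6.40 CPM in MII5 and at 0 in the other MII oocytes. In GV it ran over 1.17, 8.46 and 17.3 CPM (lowest, median, highest), and its ratio was −2.69 ± 1.73, or −4.62 without MII5.

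Rab8a, which directs exocytic vesicles to the plasma membrane, had the lowest ratio after Rab13 and Rab40c. Its lowest, median and highest values were 28.0, 60.6 and 79.4 CPM in MII oocytes, against 65.0, 103 and 183 CPM in GV oocytes. The overlap comes from MII4 (65.1 CPM) and MII5 (79.4 CPM), which lie just above GV3 (65.0 CPM) and, for MII5, GV6 (78.6 CPM). The ratio of −0.65 ± 0.72 does not exceed the spread and was −0.64 against GV7 to GV9 and −0.71 against GV1 to GV6. As a share of the family's counts Rab8a took 0.916% to 1.80% in MII oocytes and 2.68% to 5.37% in GV oocytes. With Rab3b taken out of the total, the shares were 1.10% to 2.18% in MII and 2.82% to 6.38% in GV. Every MII share was thus below every GV share; this measure was chosen after its values were seen. Its paralog Rab8b, at 35.9 CPM in MII and 27.0 CPM in GV, had a ratio of 0.70 ± 1.56. Rab8a led Rab8b per kb by 1.59-fold in MII (highest in 3 of 6 oocytes) and by 4.06-fold in GV (9 of 9 oocytes).

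Rab14, which acts between the Golgi and endosomes, was the recycling Rab at least 2-fold higher in MII. It had 97.04, 118 and 323 CPM in MII oocytes and 50.3, 80.9 and 246 CPM in GV oocytes (lowest, median, highest). The ratio was 1.16 ± 1.14, but 0.88 without MII4, 0.94 without MII5 and 0.20 against GV7 to GV9, in which 110 to 246 CPM overlapped the MII range, and 1.61 against GV1 to GV6. Rab35, a Rab of endocytic recycling, was at 106 CPM in MII and 88.6 CPM in GV (0.54 ± 0.91). It was the group's most abundant member per kb of exon. With the RefSeq transcript length of Rab14 (3081 bases, against 13589 for all its exons), Rab14 would lie above it in MII. Rab10, Rab11b and Rab4a had ratios of 0.24, 0.21 and 0.39, within their spreads.

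**Figure D4:**
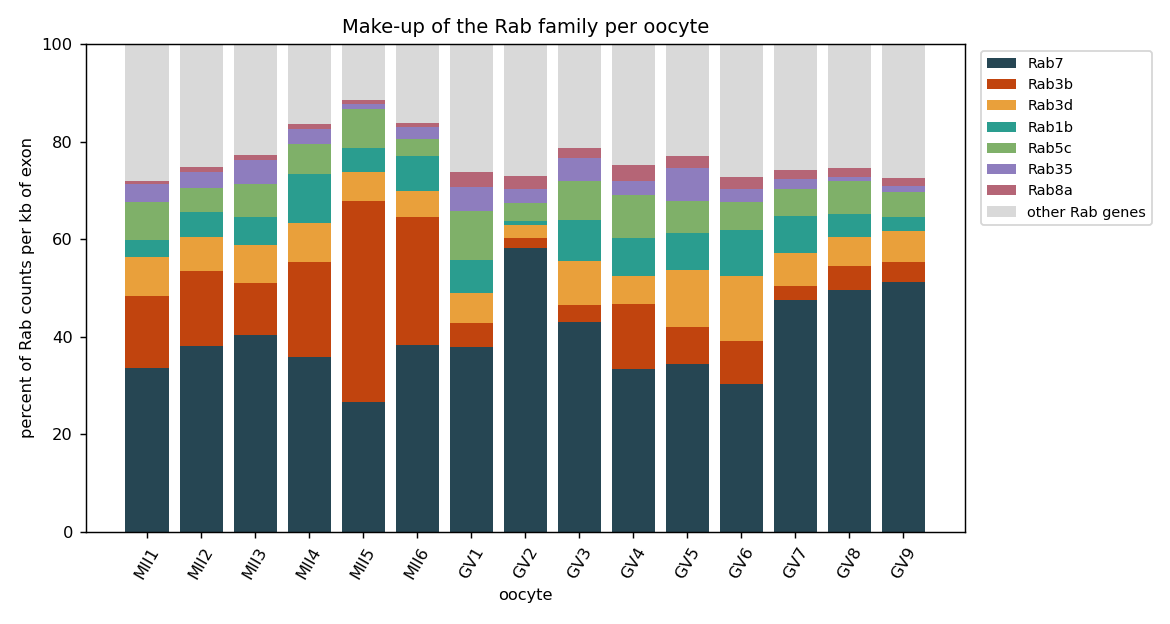
Share of each of 7 Rab genes in the family's counts per kb of exon, in percent, for each MII oocyte (left) and each GV oocyte (right); grey is the sum of all other Rab genes. Rab3b takes 10.5% to 41.4% in MII oocytes and 2.02% to 13.3% in GV oocytes, and Rab7 26.5% to 40.4% in MII oocytes and 30.2% to 58.1% in GV oocytes.

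No Rab of the ER and Golgi had a ratio larger than its spread. Of 16 genes 6 were measured, with a median of 0.67. At least 2-fold higher were 2 of the 6 (33.3%, against 12.9% of all measured genes) and none was lower (against 15.8%). Rab1b, needed for transport out of the ER, had 76.5, 185 and 295 CPM in MII oocytes and 15.9, 146 and 210 CPM in GV oocytes (lowest, median, highest), a ratio of 0.77 ± 1.39. MII4, MII5 and MII6, at 254 to 295 CPM, were above every GV oocyte, and the other 3 MII oocytes were within the GV range. Rab1b led its paralog Rab1a per kb by 50.3-fold in MII and 23.2-fold in GV, and in all 15 oocytes. Rab18, a Rab of the ER and lipid droplets, was at 15.7 CPM in MII and 8.04 CPM in GV (1.25 ± 1.64), but its ratio was 0.90 without MII6 and 0.32 against GV7 to GV9. Rab33b, a Golgi Rab with a part in autophagy, was at 9.60 CPM in MII and 3.55 CPM in GV (1.73 ± 2.45). It was at 0 in 3 of 6 MII oocytes but in no GV oocyte, and its ratio was 0.40 with the mean and 0.10 with the median over oocytes. The calls past 2-fold of both genes thus ended under these settings. Rab2a and Rab6a, both Golgi Rabs, had ratios of 0.04 ± 0.92 and 0.56 ± 0.69. For Rab6a, 708 exon bases overlap the gene Mrpl48 on the opposite strand, and without a stated strand their reads cannot be told apart.

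Early endosomal Rabs had no member past 2-fold. Of 8 genes 5 were measured, with a median of 0.49 (3 positive, 2 negative). Rab5c, one of 3 Rab5 paralogs that drive the fusion of early endosomes, was at 171 CPM in MII and 143 CPM in GV (0.54 ± 0.89). Its MII5 value of 385 CPM was the highest of all oocytes, and the other MII oocytes lay at 104 to 169 CPM, inside the GV range of 62.1 to 223 CPM. Per kb Rab5c was 12.2-fold above the next paralog, Rab5b, in MII and 7.10-fold in GV, while Rab5a had 4 counts in MII and 100 in GV and was not measured. Rab21 and Rab22a, also Rabs of early endosomes, had ratios of −0.15 ± 0.67 and 0.49 ± 1.03. Rab31 had a ratio of 0.94 ± 2.03 that turned to −1.10 without MII5, which held it at 30.7 CPM.

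Late endosomal and lysosomal Rabs were led by Rab7 in all oocytes. Rab7 had 839, 1075 and 1818 CPM in MII oocytes and 541, 1012 and 1704 CPM in GV oocytes (lowest, median, highest), a ratio of 0.51 ± 0.70, and −0.44 with the feature counted. The ratio was −0.10 against GV7 to GV9, whose range was 1140 to 1704 CPM, and 0.72 against GV1 to GV6, whose range was 541 to 1180 CPM. A processed pseudogene, Rab7-ps1, shares a run of 325 bases with Rab7, so the split of reads between them is uncertain. It held 527 counts in MII and 2114 in GV, against 7160 counts of Rab7 in MII and 44356 in GV. Rab7b, which acts between endosomes and the Golgi, was at 8.42 CPM in MII and 2.07 CPM in GV, a ratio of 2.32 ± 2.45, and 1.12 with the mean and 0.99 with the median over oocytes. It was at 0 in 3 of 6 MII oocytes and 4 of 9 GV oocytes, and at 10.4 to 18.04 CPM in MII2, MII3 and MII4. Rab9 (−0.24 ± 1.44) and Rab9b (−0.49 ± 2.13), which return receptors to the Golgi, and Rab32 (0.66 ± 0.91) and Rab38 (0.17 ± 0.97), of lysosome-related organelles, stayed within 2-fold. Rab38 led Rab32 per kb by 3.43-fold in MII and 4.79-fold in GV. Rab23, a cilium Rab that restrains Hedgehog signalling, was at 40.2 CPM in MII and 52.5 CPM in GV (−0.09 ± 0.75).

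In the other paralog groups the same member led in both stages. Per kb these were Rab2a over Rab2b, Rab4a over Rab4b, Rab6a over Rab6b, Rab7 over Rab7b, Rab9 over Rab9b, Rab22a over Rab31, Rab33b over Rab33a and Rab40c over Rab40b. The narrowest lead in GV was that of Rab33b over Rab33a, 1.35-fold (153 and 37 counts), and Rab33a had 0 counts in MII. In MII, Rab33b was the higher in 3 of 6 oocytes, and Rab40c, with 6 counts against 0, in 2 of 6. The remaining MII oocytes held no count of either member of the pair. Without GV5, and against GV1 to GV6 alone, Rab33a was the higher of the pair in GV, leaving 13 groups with the same leader. Rab11a led Rab11b by 2.10-fold in MII (4 of 6 oocytes) and by 2.19-fold in GV (6 of 9 oocytes). The Rab11b counts are uncertain, since a processed pseudogene, Rab11b-ps2 (8 counts in MII and 78 in GV), shares a run of 502 bases with it. Between paralogs themselves the longest run of identical bases was 38 bases (Rab1a and Rab1b).

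Several Rab genes differed more between the 2 sets of GV oocytes than between the stages. Of 33 members measured there, 4 were at least 2-fold lower in GV7 to GV9 (12.1%, against 20.2% of all genes measured there) and 9 at least 2-fold higher (27.3%, against 18.1%), with the median gene of the sets set to 0. The sets were apart for 9 of 33 (27.3%, against 16.8% of all genes measured there). Of these 8 were higher in GV7 to GV9 (against 10.8% of all genes) and 1 was lower (against 6.05%). The 8 were Rab25, Rab1a, Rab4a, Rab14, Rab38, Rab22a, Rab6a and Rab7, and the 1 was Rab13. Rab25, an epithelial member of the Rab11 group, spanned 10.7 to 20.6 CPM over GV7 to GV9 and 0 to 3.30 CPM over GV1 to GV6, a log2 ratio between the sets of 3.94. Rab4a, which acts in fast recycling, spanned 55.1 to 115 CPM over GV7 to GV9 and 7.04 to 36.0 CPM over GV1 to GV6 (2.11). Rab1a spanned 14.0 to 44.3 CPM over GV7 to GV9 and 0.758 to 10.8 CPM over GV1 to GV6 (2.77). On the lower side, besides Rab13 (−2.24), Rab9b (−1.71), Rab9 (−1.70) and Rab35 (−1.27) were past 2-fold with ranges that overlap.

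The direction of the stage ratio therefore depended on the GV set for 14 of the 34 measured members. The share of all measured genes with such a change of direction was not computed. For Rab25 the stage ratio was −0.95 against GV7 to GV9 and 2.96 against GV1 to GV6. Rab1a stood at −1.84 against GV7 to GV9 and 0.89 against GV1 to GV6, and Rab4a at −0.88 against GV7 to GV9 and 1.19 against GV1 to GV6. Rab9 went the other way, with 1.18 against GV7 to GV9 and −0.55 against GV1 to GV6. Past 2-fold against each set alone were Rab3b, Rab7b and Rab33b on the higher side and Rab13 and Rab40c on the lower side. How many of all measured genes were past 2-fold against each set was not computed. Both comparisons share the 6 MII oocytes.

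**Figure D5:**
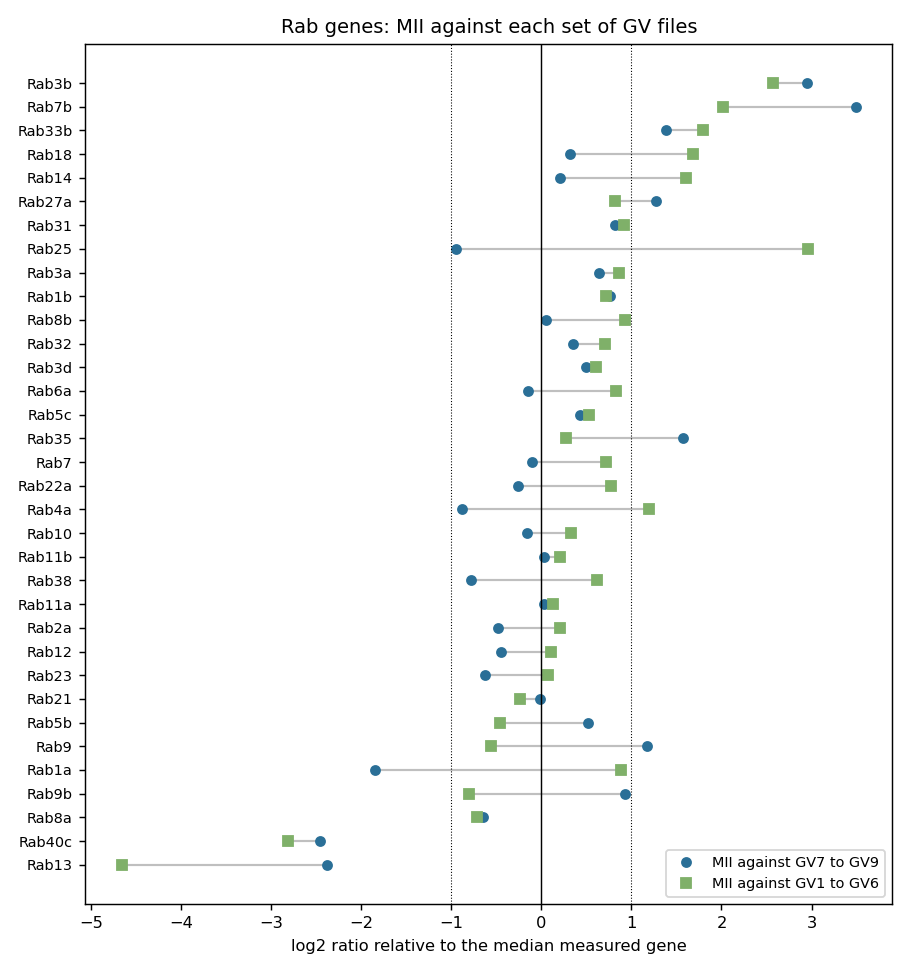
Log2 ratio of MII against GV7 to GV9 (circles) and of MII against GV1 to GV6 (squares) for each measured Rab gene, each relative to the median measured gene, with dotted lines at 2-fold. Rab3b lies at 2.96 (circle) and 2.58 (square), while Rab25 lies at −0.95 (circle) and 2.96 (square).

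The 25 members below the filter on level held few counts. None was above 4.09 CPM in either stage, and 9 of the 24 with a count in any oocyte had 0 counts in MII. Together these genes were at 6.28 to 25.0 CPM per MII oocyte and 8.34 to 63.7 CPM per GV oocyte, highest in GV1 (63.7 CPM) and GV2 (35.9 CPM). GV1 and GV2 held 41.5% of their GV counts and 21.1% of all GV counts. All 37 counts of Rab33a were in GV1 (25) and GV2 (12), and Rab39b had 60 and 34 of its 113 GV counts there. Rab28, a cilium Rab, had 33 of 38 GV counts in GV1, and Rab19 had all 9 there. GV1 also had the most cumulus and granulosa marker counts (354 CPM), while GV2 (142 CPM) was not set apart by that list. In theca and stroma markers GV2 (27.2 CPM) and GV1 (18.5 CPM) were the highest GV oocytes. The part of both marker lists in these low members was not tested. With each oocyte thinned to 536101 counts, 31 to 37 members were detected per MII oocyte and 31 to 43 per GV oocyte, with 43 in GV1 and 41 in GV9. Unthinned, the numbers were 33 to 39 in MII and 34 to 52 in GV.

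Regulators of the Rab cycle had measured genes on both sides of the median gene. The gene with the most counts in each list below is given in CPM, which is no ranking of levels, since counts also grow with length. Of all measured genes 15.8% were at least 2-fold lower in MII, 12.9% at least 2-fold higher and 2.47% had stages that did not overlap. These shares are the background for the counts in each list. Of 8 genes for prenylation, GDI and escort proteins 6 were measured, 1 at least 2-fold lower and 1 higher, with a median of −0.42. Gdi2, which keeps GDP-bound Rabs soluble and had the most counts, was at 43.1 CPM in MII and 66.1 CPM in GV (−0.33 ± 0.69). The escort protein gene Chml had the lowest ratio (−1.02 ± 1.74). Of 33 guanine nucleotide exchange factors, which load Rabs with GTP, 27 were measured, 2 lower and 3 higher, with a median of −0.01. Dennd6a, an exchange factor of Rab14, had the most counts and the highest ratio, at 545 CPM in MII and 153 CPM in GV (2.12 ± 1.10), with stages that did not overlap. Dennd5b had the lowest ratio (−1.55 ± 2.02). Of 35 GTPase-activating proteins, which switch Rabs off, 24 were measured, 1 lower and 4 higher, with a median of 0.08. Tbc1d22b had the most counts (748 CPM in MII and 511 CPM in GV, 0.84 ± 0.84), Evi5l the highest ratio (1.72 ± 2.66) and Tbc1d5, which acts on Rab7, the lowest (−1.02 ± 1.498).

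Effectors of the secretory Rabs had counts on both sides. The background over all measured genes is again 15.8% lower, 12.9% higher and 2.47% with stages that did not overlap. Of 17 Rab3 and Rab27 effectors 9 were measured, 1 at least 2-fold lower and 2 higher, with a median of 0.58. Rph3a (rabphilin, a Rab3 and Rab27 effector) had the most counts, at 451 CPM in MII and 366 CPM in GV (0.59 ± 1.09). Rims3, of the RIM family of release-site proteins, was at 77.6 CPM in MII and 29.0 CPM in GV (1.71 ± 0.88), with stages that did not overlap, while Rims2 was at 3.37 CPM in MII and 17.7 CPM in GV (−2.07 ± 1.78). Of 12 Rab11 effectors and myosin V genes 10 were measured and none was past 2-fold (median 0.21). Myo5b, the motor that Rab11 vesicles use, had the most counts, at 1295 CPM in MII and 1145 CPM in GV (0.46 ± 0.89), with the highest ratio in Rab11fip3 (0.93 ± 2.27) and the lowest in Myo5a (−0.59 ± 1.07). Of 18 Rab5 and Rab7 effectors 15 were measured, 1 lower and 2 higher, with a median of 0.00. Fyco1, which links Rab7 to kinesin, had the most counts and the highest ratio, at 369 CPM in MII and 123 CPM in GV (1.88 ± 1.42), and Zfyve16 had the lowest ratio (−1.79 ± 1.42). Of 17 genes of the exocytosis machinery 13 were measured, 3 lower and none higher, with a median of 0.27. Nsf, the ATPase that recycles SNARE complexes, had the most counts, at 259 CPM in MII and 212 CPM in GV (0.57 ± 0.94), and the SNARE gene Vamp3 had the highest ratio (0.999 ± 1.75). Complexin gene Cplx2 had the lowest (−6.32 ± 2.11), with 1 MII count and a GV level 146-fold above that of MII (counting interval 26.2 to 5788).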

How the data were processed

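Each deposited file holds whole-number counts of 1 oocyte by Ensembl gene ID, per the file headers and the values. Per the submitters' processing notes, cutadapt 4.0, STAR 2.7.10a and the build GRCm39 were used, with no role given for each. The counter, annotation, strand setting, handling of multi-mapping reads and presence of molecular identifiers were not given in the sources used here. Where a file has no row for a gene, its count was set to 0.

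Symbols, biotypes, exon lengths and transcript sequences came from GENCODE M21 (GRCm38, no coordinates used), which named 28444 of 28785 IDs. CPM were computed from counts outside ENSMUSG00000119584. Counts were summed per stage, 0.5 was added to each sum, and log2 ratios MII/GV were taken relative to the median measured gene (at least 5 CPM in the higher stage). The level of an oocyte is log2(CPM + 1) minus that of its median measured gene. Intervals of CPM are exact Poisson 95% intervals. Those of a fold are exact binomial 95% intervals of the split of counts between the stages, scaled by the totals. They cover counting error only, since PCR reads without molecular identifiers are not independent molecules. Replicate numbers only name oocytes. The lowest chi-square per degree of freedom among 51 pairs within a stage was 7.26, so no 2 oocytes agreed within sampling noise. No p-value was made.

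Named members were the cortical granule Rabs, the most abundant per kb of each role, paralog groups with a measured member, the 6 lowest and 6 highest ratios and members with stages that do not overlap. Of other lists the gene with the most counts and those with the lowest and highest ratios were named, except 1 gene that is not reported here. Other members are named by counts, chosen after their values were seen. The members and lists were chosen with earlier results of these data known. Alternatives covered scaling (edgeR 4.0.16 TMM, DESeq2 1.42.0 size factors), summaries, filters, depth, GV sets and left-out oocytes. Python 3.11.15, pandas 2.3.3, scipy 1.17.1 and R 4.3.3 were used, and the calculation was tested on simulated data.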

Additional observations from a re-analysis of the deposited data

Results flagged for a closer look

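In 6 of 62 groups (a member within a stage) the highest or lowest oocyte stood apart from the others by Dixon's criterion at the 95% level; chance gives about 1 in 20. The values are levels on the log2 scale relative to the oocyte's median measured gene. In MII, Rab13 was high in MII4 (−3.53), which rests on the single MII count of this gene. In GV, 3 flags fell on GV2, where Rab1b (−0.54, 15.9 CPM), Rab27a (−0.69, 14.3 CPM) and Rab3d (1.85, 88.2 CPM) were low. Rab2a was low in GV3 (−1.21, 8.45 CPM) and Rab8b in GV4 (−2.94, 3.03 CPM).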

How the results depend on the processing

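No paired analysis was possible because the results come from no test, and the replicate numbers that MII and GV share only name oocytes. The count of members at least 2-fold higher in MII (5) became 2 in CPM with the unnamed feature counted, 3 in CPM without it and without the median gene, 8 with oocytes thinned, 8 and 2 with filters of 1 and 20 CPM, 3 with the median over oocytes, and 5 to 8 when 1 oocyte was left out (8 without MII2 or GV4). The count at least 2-fold lower (2) became 9 with the feature counted, 6 and 0 with filters of 1 and 20 CPM, 1 without GV1 and GV2, and 1 to 3 when 1 oocyte was left out (1 without GV1, 3 without MII4). The count of members with stages that do not overlap (1) became 0 with the feature counted, 0 with a filter of 20 CPM, 5 against GV7 to GV9 and 4 against GV1 to GV6, and 0 to 2 when 1 oocyte was left out (0 without GV1, GV5 or GV6, 2 without GV4). The share of all measured genes was not computed for these settings, and ranges over fewer oocytes are apart more readily for any gene. Leaving out an oocyte also redefined the measured genes. The median ratio (0.50) was −0.51 with the feature counted, 0.030 against GV7 to GV9 and 0.28 to 0.59 when 1 oocyte was left out. With the feature counted the median measured gene itself stood at −0.98, and the values of that setting were not taken relative to it. Paralog groups with 1 leader numbered 13 to 14 when 1 oocyte was left out. Of 858 alternative values of 31 named members, 19 moved by more than the spread between oocytes. No ratio past 2-fold in the reported values changed sign, but Rab31 (reported 0.94) was −1.10 without MII5 and Rab9 (reported −0.24) was 1.18 against GV7 to GV9. A GV set alone moved 16 of the 31 over 1.5-fold, and leaving out 1 oocyte moved 5, including Rab1a (−0.92 without MII5, 0.22 without GV8) and Rab9b (−1.47 without MII4, 0.11 without GV2). After seeing the data, 3 values were added: the family level differed by 334 CPM (MII minus GV) without Rab3b and by −326 per all counts, against 1324 CPM as reported, and the secretion share by 2.44 percentage points without Rab3b, against 15.8. The cause of these shifts was not tested. Depth limits the members near the filter, since 3 counts are 0.505 CPM in MII and 0.0697 CPM in GV.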
